A study of Mus musculus with 6 samples.

Results

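The 10 genes described here belong to the Hippo-YAP pathway or lie beside it: the junction protein gene Jcad, the upstream regulators Ajuba and Amotl2, the kinase gene Lats2, the coactivator genes Yap1 and Wwtr1, their DNA-binding partner Tead1, and the target genes Ccn1, Ccn2 and Ankrd1. They are 10 of 18193 named genes measured in mouse fibroblasts. Of the 10, 9 were put together as pathway genes and targets, whereas Jcad was chosen by its own difference between the genotypes in these data. Its difference is therefore given as a description, and its result in the test over all genes only restates that choice. Each gene is represented by the probe set with the highest mean over the 6 arrays.

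The cells were primary fibroblasts of C57bl6X129S3/J mice, either wild type (WT, 3 arrays) or carrying Delta9, an altered allele of Lmna, the gene of lamin A and lamin C (3 arrays). Whether 1 or both copies were altered in these mice is not given in the sources used here. All lines came from sibling animals, and cells of both genotypes were harvested at passage 3 after 72 hours in serum-free medium. The labels call the animals adult, the design text post-natal, and neither says how many animals were used, so p-values measure the spread between these 3 and 3 samples, which may be partly technical.

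Hippo signalling is a kinase cascade in which LATS kinases phosphorylate the coactivators YAP and TAZ (the product of Wwtr1) and keep them out of the nucleus. When the cascade is off, as in spread and tensed cells, YAP and TAZ enter the nucleus, bind TEAD factors and switch on genes such as Ccn1, Ccn2 and Ankrd1. Much of this control acts on protein location and phosphorylation, which an expression array does not measure. Lats2 and Amotl2 are both regulators and targets, and so form negative feedback loops. In fibroblasts the pathway is known as a sensor of stiffness and cytoskeletal tension, and it shares target genes with the serum response factor SRF and its coactivators of the MRTF family.

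TEAD factors bind a short element, GGAATG, which reads CATTCC on the other strand. The sequences around this element near the starts of the members are shown because every member with a promoter window carries it. RefSeq windows on GRCm38.p6, from 250 bases before to 50 bases after a gene's start, were matched by symbol for 7 of the 10 genes (Ccn1, Ankrd1, Amotl2, Ajuba, Lats2, Yap1 and Wwtr1). All 7 held the element on at least 1 strand, against 2212 of 14452 array genes with a window (15.3%). In 6 of the 7 it lay before the start, as it did in 13.4% of those array genes. The CArG box bound by SRF was in none of the 7 windows and in 1.58% of the array genes, each motif being counted whether or not it overlapped the other, on both strands. A match is a string of letters and not a shown binding site, and since several of these genes are textbook TEAD targets the count was not tested. Each sequence runs 5′ to 3′ on the gene's own strand, with the element in capitals.

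Ccn1, chr3:145650068-145650103, minus strand: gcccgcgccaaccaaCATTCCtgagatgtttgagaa
Ankrd1, farther element, chr19:36120034-36120069, minus strand: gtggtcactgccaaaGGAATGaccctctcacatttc
Ankrd1, nearer element, chr19:36119947-36119982, minus strand: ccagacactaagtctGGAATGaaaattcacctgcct
Amotl2, chr9:102717724-102717759, plus strand: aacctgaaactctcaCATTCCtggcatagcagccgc
Ajuba, farther element, chr14:54577827-54577862, minus strand: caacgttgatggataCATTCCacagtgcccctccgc
Ajuba, nearer element, chr14:54577805-54577840, minus strand: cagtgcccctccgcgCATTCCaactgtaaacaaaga
Lats2, chr14:57746102-57746131, minus strand: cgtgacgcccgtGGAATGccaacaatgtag
Yap1, chr9:8004717-8004752, minus strand: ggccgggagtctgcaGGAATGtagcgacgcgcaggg
Wwtr1, chr3:57576026-57576061, minus strand: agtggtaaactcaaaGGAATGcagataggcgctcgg

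Counted from the gene's start, the first base of the element lay at -103 in Ccn1, at -210 and -123 in Ankrd1, at -65 in Amotl2, at -186 and -164 in Ajuba, at -141 in Yap1, and at 5 in Lats2, just inside the transcript. The Wwtr1 element lay at -136 from one annotated start and at -170 from another. Ankrd1 and Ajuba were thus the genes with a pair of elements, and the element of Lats2 was the one downstream of a start. These elements sit in genes that differed between the genotypes to very unequal degrees, as the values below show.

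The arrays themselves were alike in scale, with Pearson correlations of 0.963 to 0.992 between them and no pair of identical files. Lmna was lower in all Delta9 samples on 4 of its 5 probe sets, the brightest reading 6.11 to 7.07 log2 in Delta9 and 8.35 to 8.89 in WT. The position of these probe sets relative to the Delta9 alteration is not known here, so this is a weak check of the labels. All 11 fibroblast markers, such as Col1a1 and Pdgfra, lay above the median level of all genes on these arrays. Delta9 replicate 3 and WT replicate 1 had the lowest poly-A spike-in signals, 5.32 and 4.92 log2 against 5.82 to 6.34 on the other 4 arrays. Delta9 replicate 3 also stood apart in the genes described here.

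Every member had a lower mean in Delta9 than in WT, Ajuba by 0.02 log2 only, as did 53.2% of all genes. They followed 2 patterns. On their brightest probe sets, Jcad, Lats2 and Wwtr1 were lower in all 3 Delta9 samples. There Delta9 replicate 3 differed from the mean of the other Delta9 samples by 0.03, 0.10 and -0.26 log2. The other probe sets of these genes overlapped between the groups. Ccn2, Tead1, Ankrd1 and Ajuba were over 1 log2 lower in Delta9 replicate 3 than in the mean of the other Delta9 samples. Ccn1, Amotl2 and Yap1 lay between in this respect. Of these, Ccn1 (on all 4 of its probe sets) and Amotl2 were also lower in all 3 Delta9 samples than in any WT sample. Delta9 replicate 3 had the lowest value of the 6 arrays for 8 of the 10 genes, as it did for 25.1% of all genes. A gap of over 1 log2 below the other Delta9 samples was found for 4 of the 10 genes and for 2.36% of all genes (429). The median difference of the 10 was -0.55 log2, beside -0.01 over all genes, and -0.37 without Delta9 replicate 3.

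**Figure D1:**
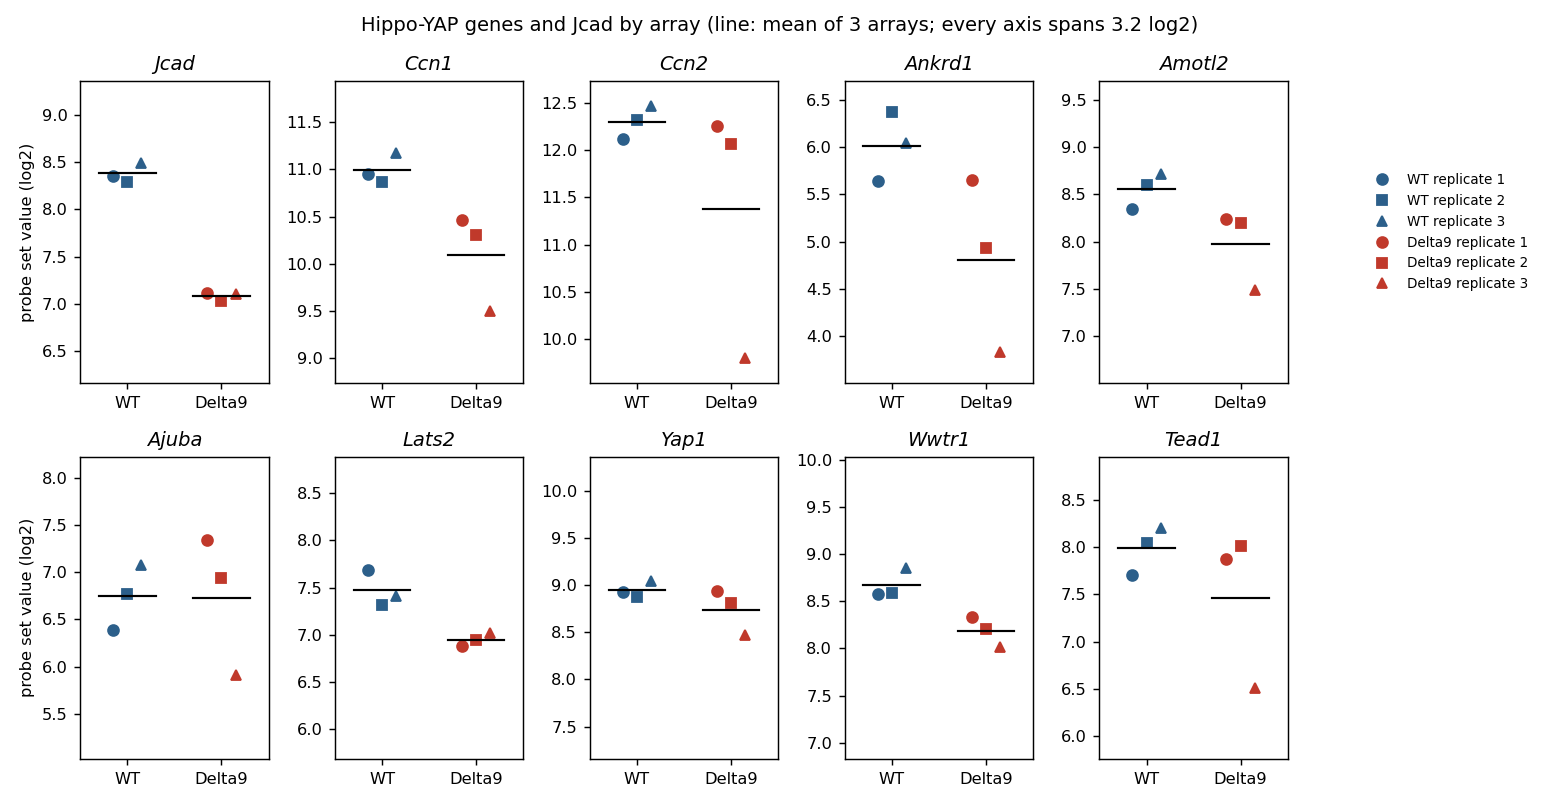
Probe set values (log2, vertical axis) of the 10 genes in 3 WT and 3 Delta9 samples, 1 panel per gene, with a line at each group mean. The 3 Delta9 values of Jcad lie together at 7.03 to 7.11, whereas those of Ccn2 run from 9.80 to 12.26 with Delta9 replicate 3 alone at the bottom.

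Delta9 was compared with WT by limma over all 18193 genes, with Benjamini-Hochberg adjustment and a threshold of 0.05. Over all genes 11 passed, which is 0.0605%, and Jcad was among them, as its choice requires. None of the other 9 passed (adjusted p 0.297 to 0.994). At an unadjusted p under 0.05, 5 of the 9 were lower, where 6.06% of all genes were, and for 4 of the 9 the groups did not overlap, where 9.99% of all genes had all Delta9 values below all WT values. The 9 were put forward with earlier results of these data known, so these shares are a description of the genes and not support for a shift of the pathway.

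Jcad encodes a protein of cell-cell junctions, best known from endothelial cells and reported to bind the kinase LATS2. It read 7.11, 7.03 and 7.10 in Delta9 replicates 1 to 3, and 8.36, 8.29 and 8.49 in WT. The Delta9 values were nearly identical and lay at least 1.18 log2 below every WT value. The means were 7.08 ± 0.04 in Delta9 and 8.38 ± 0.10 in WT (SD, n = 3), a difference of -1.30 (SE 0.12) or 2.46-fold lower. Leaving out any 1 array kept the difference between -1.34 and -1.25. In the 4 arrays of higher spike-in signal it was -1.32 and between the remaining pair -1.26. A second, dim probe set of Jcad, 1438263_at, read 2.69 to 3.01 in Delta9 and 2.80 to 3.33 in WT and differed by -0.19 (SE 0.16), so the size rests on 1 probe set, and with the mean of both it was -0.75.

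Jcad is a gene of endothelium, so the markers of that cell type were read beside it. The 12 endothelial markers, Pecam1 and Cdh5 among them, averaged 4.36 to 5.07 log2 in Delta9 and 4.38 to 4.76 in WT, with overlapping groups. Of the 12, 10 had higher values in Delta9 and 6 lay below the median level of all genes. Pecam1, an adhesion molecule of endothelial junctions, read 4.73, 4.01 and 3.24 in Delta9 and 3.34, 4.02 and 3.89 in WT. Of the 12, 1 had all Delta9 values below all WT values, as did 9.99% of all genes. This was Erg, an endothelial transcription factor, at 4.71, 4.48 and 4.19 in Delta9 and 5.34, 5.26 and 5.01 in WT. Its difference was -0.75 (SE 0.18, adjusted p 0.248 by limma). The part of endothelial RNA in the Jcad values was not tested. In bulk RNA fewer cells of a type and less RNA per cell cannot be told apart.

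Ajuba, a LIM-domain protein of junctions that binds and restrains LATS kinases, did not separate the genotypes. It read 7.34, 6.94 and 5.91 in Delta9 and 6.39, 6.77 and 7.07 in WT. The highest and the lowest of the 6 values were both in Delta9, and the difference was -0.02 (SE 0.37). Without Delta9 replicate 3 it turned to 0.40. Its relatives Limd1 and Wtip, which also bind LATS kinases, differed by -0.03 (SE 0.17) and 0.21 (SE 0.18).

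Amotl2, an angiomotin-like scaffold that can hold YAP in the cytoplasm and is itself a YAP target, was lower in all Delta9 samples. It read 8.24, 8.20 and 7.49 in Delta9 and 8.34, 8.60 and 8.71 in WT. The groups did not overlap, by a gap of 0.10. The difference was -0.58 (SE 0.23, adjusted p 0.443), 1.49-fold lower, and it was -0.33 without Delta9 replicate 3. Of its relatives, Amot was lower by a small amount in all Delta9 samples (-0.32, SE 0.13), and Amotl1 differed by -0.01 (SE 0.23).

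Lats2, one of the kinases that inactivate YAP and TAZ, showed an even difference on its brightest probe set. This read 6.89, 6.95 and 7.02 in Delta9 and 7.69, 7.32 and 7.42 in WT, without overlap. The difference was -0.52 (SE 0.15, adjusted p 0.303), 1.44-fold lower, and -0.56 without Delta9 replicate 3. The other 5 probe sets of Lats2 did not separate the groups. The next in brightness, 1437101_at, differed by -0.22 (SE 0.18), and the remaining 4 differed by 0.04 to 0.22 in the other direction. The brightest is of the _x_at type, which can hybridise to related sequences, and with the mean of all 6 probe sets the difference was -0.05. Lats1, the sister kinase, differed by -0.26 (SE 0.23).

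**Figure D2:**
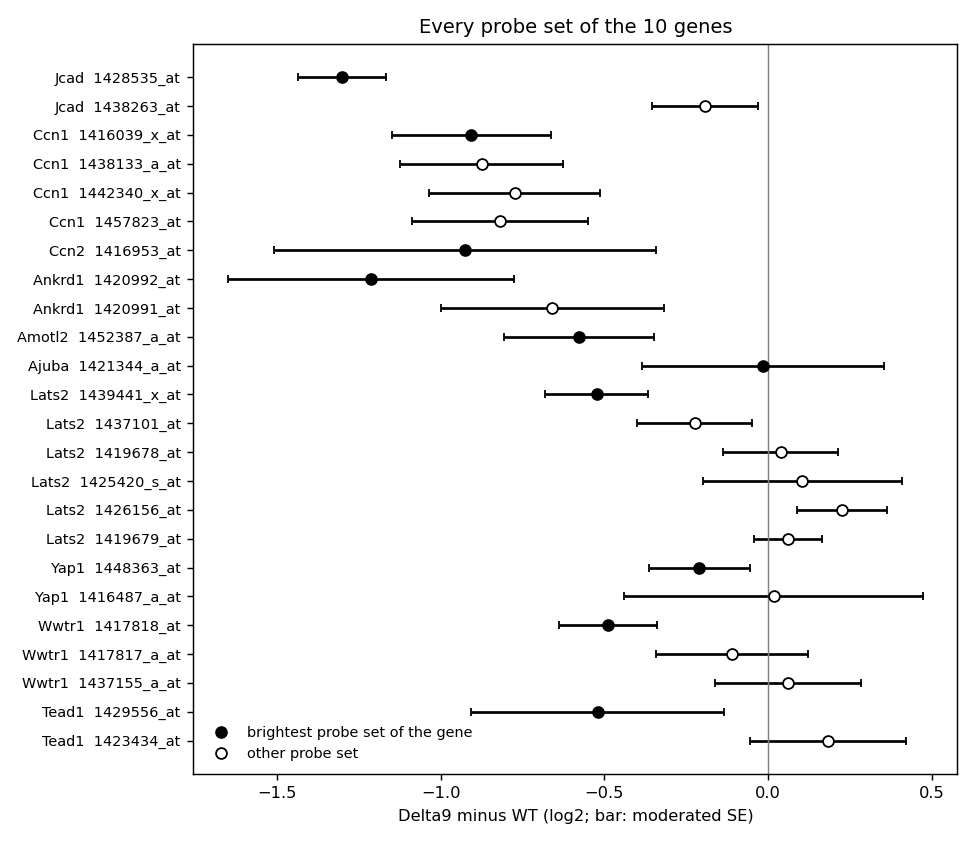
Difference between Delta9 and WT (log2, horizontal axis) with its moderated standard error, from a fit over all probe sets, for each of the 24 probe sets of the 10 genes; filled points are the brightest probe set of a gene. The 4 probe sets of Ccn1 lie between -0.91 and -0.77, whereas those of Lats2 run from -0.52 to 0.22.

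Yap1 and Wwtr1 encode the paired coactivators at the end of the cascade. Yap1 read 8.93, 8.81 and 8.47 in Delta9 and 8.92, 8.88 and 9.04 in WT. These values overlapped, and the difference was -0.21 (SE 0.15, adjusted p 0.664). Without Delta9 replicate 3 it was -0.08. The dimmer probe set of Yap1, 1416487_a_at, differed by 0.02 (SE 0.46).

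Wwtr1 read 8.33, 8.21 and 8.01 in Delta9 and 8.57, 8.59 and 8.85 in WT. All 3 Delta9 values lay below all WT values, by a gap of 0.24. The difference was -0.49 (SE 0.15, adjusted p 0.330), 1.40-fold lower, and -0.40 without Delta9 replicate 3. Its other probe sets, 1417817_a_at and 1437155_a_at, overlapped between the groups and differed by -0.11 (SE 0.23) and 0.06 (SE 0.22), and the mean of the 3 gave -0.18. Wwtr1 thus separated the groups on its brightest probe set only.

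Tead1, the DNA-binding factor, depended on 1 sample. It read 7.87, 8.02 and 6.51 in Delta9 and 7.71, 8.05 and 8.21 in WT. Delta9 replicate 3 alone lay below the WT range. The difference was -0.52 (SE 0.39, adjusted p 0.676), and it was -0.04 without that sample. A dim probe set, 1423434_at, differed by 0.18 (SE 0.24). Among the other TEAD genes Tead2 differed by 0.11 (SE 0.25), Tead3 by -0.31 (SE 0.15) and Tead4 by -0.06 (SE 0.11). Tead3 was the one whose groups did not overlap, at 5.11 to 5.46 in Delta9 and 5.56 to 5.67 in WT.

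Ccn1 and Ccn2 encode secreted matricellular proteins, formerly Cyr61 and Ctgf, that are the standard readouts of YAP activity. Ccn1 read 10.47, 10.31 and 9.50 in Delta9 and 10.95, 10.87 and 11.17 in WT. All Delta9 values were below all WT values, by a gap of 0.40. The difference was -0.91 (SE 0.25, adjusted p 0.297), 1.87-fold lower, and -0.61 without Delta9 replicate 3. The other 3 probe sets of Ccn1 also had non-overlapping groups, with differences of -0.87, -0.77 and -0.82.

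The Ccn1 probe sets did not rank the Delta9 samples alike. On 1416039_x_at, the brightest, and 1438133_a_at, Delta9 replicate 3 was the lowest sample. On 1442340_x_at it was the highest of the Delta9 samples, at 9.42 against 8.33 in replicate 1 and 8.81 in replicate 2. Probe set 1457823_at, which the platform annotation ties to the same source sequence, had the same order, at 8.02, 8.60 and 9.11. The lower level in Delta9 was therefore common to all 4, and the low position of replicate 3 was not.

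Ccn2 differed from Ccn1 in where Delta9 replicates 1 and 2 lay. It read 12.26, 12.07 and 9.80 in Delta9 and 12.12, 12.32 and 12.46 in WT. Delta9 replicates 1 and 2 lay in or next to the WT range, and replicate 3 lay 2.36 log2 below their mean. The difference was -0.93 (SE 0.60, adjusted p 0.624), with a Delta9 mean of 11.38 ± 1.37 against 12.30 ± 0.17 (SD, n = 3). Without Delta9 replicate 3 it was -0.14. Between the arrays of lower spike-in signal, Delta9 replicate 3 and WT replicate 1, Ccn2 differed by -2.32, and in the other 4 arrays by -0.23. For Ccn1 these values were -1.45 and -0.63.

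Ankrd1, an ankyrin-repeat cofactor that is a YAP target and also a gene of stressed muscle, was the most graded of the targets. It read 5.65, 4.93 and 3.83 in Delta9 and 5.64, 6.37 and 6.04 in WT. Delta9 replicate 1 lay just above the lowest WT value, and the other Delta9 values below it. The difference was -1.21 (SE 0.44, adjusted p 0.417), 2.32-fold lower, and -0.72 without Delta9 replicate 3. The second probe set, 1420991_at, differed by -0.66 (SE 0.34). The relatives Ankrd2 and Ankrd23 differed by -0.23 each (SE 0.22 and 0.16). The 11 skeletal muscle markers averaged 4.46 to 5.57 in Delta9 and 4.82 to 5.72 in WT, with 7 of 11 lower and overlapping groups, and their part in the Ankrd1 values was not tested.

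**Figure D3:**
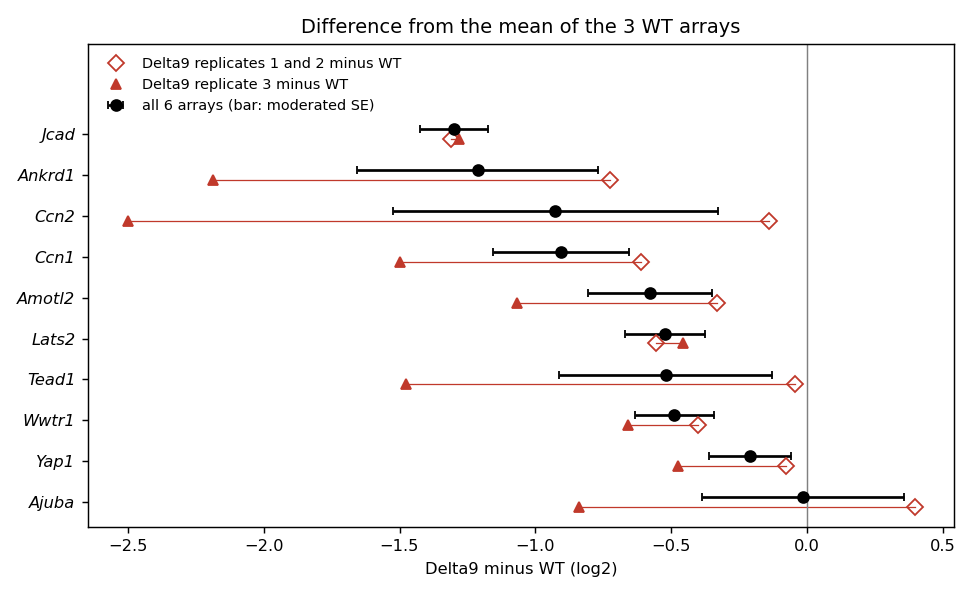
Difference from the mean of the 3 WT arrays (log2, horizontal axis) for each gene: all Delta9 arrays with the moderated standard error (black), Delta9 replicates 1 and 2 together (open) and Delta9 replicate 3 (triangle). The open and filled red symbols lie close together for Jcad, Lats2 and Wwtr1 and 2.36 log2 apart for Ccn2.

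The other CCN genes, which share the domain plan of Ccn1 and Ccn2, were mostly lower too. Ccn3 read 10.97, 10.83 and 11.22 in Delta9 and 11.79, 11.56 and 11.74 in WT, a difference of -0.69 (SE 0.13, adjusted p 0.176) with no overlap. Ccn5, which lacks the last of the family's domains, differed by -1.13 (SE 0.33, adjusted p 0.322) with no overlap, at 8.45, 8.49 and 7.26 in Delta9 and 8.99, 9.21 and 9.38 in WT. Ccn4 followed Ccn2, with 10.01, 10.14 and 8.07 in Delta9 against 9.49 to 10.55 in WT. Ccn6 was dim on all arrays, at 2.11 to 2.59. Of the 6 CCN genes, Ccn1, Ccn3 and Ccn5 thus had non-overlapping groups, where 9.99% of all genes had all Delta9 values below all WT values. None passed the threshold (limma), and 3 of 6 were lower at an unadjusted p under 0.05, beside 6.06% of all genes.

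The wider pathway was read from lists, which were written with earlier results of these data known. Of 11 measured genes of the Hippo kinase core (Stk3 is not on the list of measured genes), values were lower in 6 and higher in 5, and their median was -0.06. None passed over all genes (limma). At an unadjusted p under 0.05, 1 of the 11 was lower and 0 higher, where 6.06% and 4.54% of all genes were. That gene was Lats2, one of the members. The Hippo kinase gene Stk4 differed by 0.61 (SE 0.30) and Taok3, which acts above it, by 0.43 (SE 0.28). The core apart from Lats2 had a median of -0.01.

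Upstream regulators, which include the junction and cytoskeletal proteins that feed into the kinases, had mostly lower values. Of 23 measured, 19 had lower values, with a median of -0.18; the 20 that are not Jcad, Ajuba or Amotl2 had 16 lower values and a median of -0.16. With the mean of each gene's probe sets the median of the 23 was -0.0496. By limma none of the 20 passed over all genes, and 5 of them were lower and none higher at an unadjusted p under 0.05, where 6.06% and 4.54% of all genes were. Fat1, a giant atypical cadherin, read 10.44, 10.60 and 9.98 in Delta9 and 11.35, 11.17 and 11.48 in WT, a difference of -0.99 (SE 0.18, adjusted p 0.161). Ptpn14, a phosphatase that binds YAP, read 6.16, 5.90 and 5.44 in Delta9 and 6.29, 6.47 and 6.80 in WT, a difference of -0.68 (SE 0.23). Both were lower in all 3 Delta9 samples without passing.

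Nuclear partners of YAP and TAZ had lower values in 9 of 12 (Runx2 is not on the list of measured genes). Their median was -0.26, or -0.08 without Delta9 replicate 3. The 12 include the members Wwtr1, Yap1 and Tead1, and the other 9 had 6 lower values and a median of -0.06. None passed (limma), and 3 of 12 were lower at an unadjusted p under 0.05, beside 6.06% of all genes. Besides Wwtr1 these were Vgll1, a dim TEAD cofactor (-0.31, SE 0.12), and Smad3, a TGF-beta effector that can join YAP (-0.40, SE 0.15). Smad3 read 7.15, 7.21 and 6.86 in Delta9 and 7.38, 7.43 and 7.61 in WT.

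A signature of 22 YAP and TAZ target genes was lower in 19 and higher in 3 by value, and its median was -0.33, or -0.16 without Delta9 replicate 3. None passed over all genes (limma), 8 were lower and none higher at an unadjusted p under 0.05 (6.06% and 4.54% of all genes), and for 7 all Delta9 values lay below all WT values (9.99% of all genes). This list holds Ccn1, Ccn2, Ankrd1, Amotl2 and Lats2. Its other 17 genes had a median of -0.15, with 14 lower values, 4 at an unadjusted p under 0.05 and 4 with non-overlapping groups. F3, tissue factor, was the lowest in p among these, at 8.31, 7.81 and 7.92 in Delta9 and 8.41, 8.56 and 8.97 in WT (-0.63, SE 0.20).

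**Figure D4:**
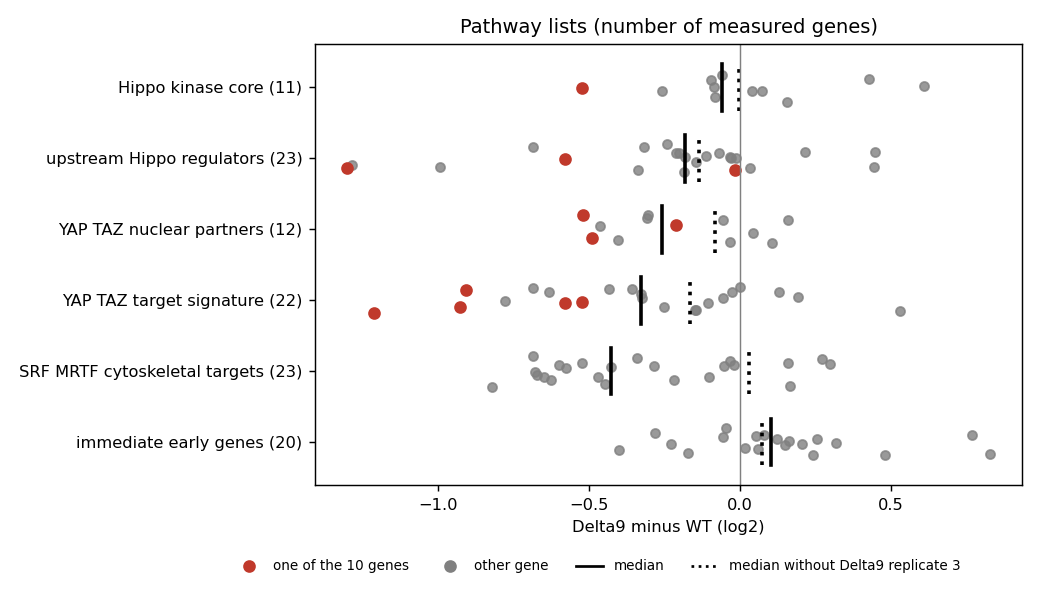
Difference between Delta9 and WT (log2, horizontal axis) for each measured gene of 6 lists, with the 10 genes in red, the list median as a solid line and the median without Delta9 replicate 3 as a dotted line. The SRF and MRTF list moves from a median of -0.43 to 0.03 when that sample is left out, and the Hippo kinase core stays near 0.

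SRF and MRTF targets, mostly actin and contractile genes that share regulation with YAP targets, depended on 1 sample. The list also holds the regulator genes Srf, Mrtfa and Mrtfb, which differed by -0.05, 0.16 and 0.27 (SE 0.28, 0.19 and 0.16). Of 23, 19 had lower values, with a median of -0.43, and the median was 0.03 without Delta9 replicate 3. None passed over all genes (limma), with 3 of 23 lower at an unadjusted p under 0.05, beside 6.06% of all genes. These were Fhl1, a LIM protein (-0.82, SE 0.22), Vcl, vinculin of focal adhesions (-0.69, SE 0.20), and Lmod1, a smooth muscle actin nucleator (-0.65, SE 0.25). Vcl read 10.21, 10.24 and 9.54 in Delta9 and 10.63, 10.61 and 10.81 in WT, without overlap. For 19 of the 23 genes Delta9 replicate 3 was the lowest of the 6 arrays.

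The genes whose values over the 6 arrays were most like those of Ccn2 were found by Pearson correlation. Among 1457 genes with an SD of at least 0.5 log2, the nearest over 6 arrays were Myl9, the regulatory myosin light chain (r = 0.996), Thbs1, thrombospondin 1 (0.992), Tagln, transgelin (0.990), Inhba, an activin subunit (0.989), and Actg2, smooth muscle gamma actin (0.988). Tagln read 12.18, 12.14 and 9.91 in Delta9 and 11.84, 12.06 and 12.34 in WT. Such values share the single low point of Delta9 replicate 3, and 32 genes exceeded 0.95. Tead1 was the member nearest to Ccn2 (r = 0.978).

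The nearest to Jcad were genes that separate the genotypes evenly. They were Fmod, fibromodulin (r = 0.994), Matn4, matrilin 4 (0.993), Gpsm1, a G-protein modulator (0.991), Notch3, a receptor of mural cells (0.989), and Scube2, a secreted protein of Hedgehog release (0.989), over the same 6 arrays. Notch3 read 6.88, 6.81 and 6.69 in Delta9 and 7.97, 7.72 and 8.04 in WT. Here 41 genes exceeded 0.95, and the points fall into the 2 groups of 3, so these values restate the separation. Among the members Lats2 (r = 0.911) and Wwtr1 (0.906) were nearest to Jcad, and Ajuba was farthest (0.03).

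**Figure D5:**
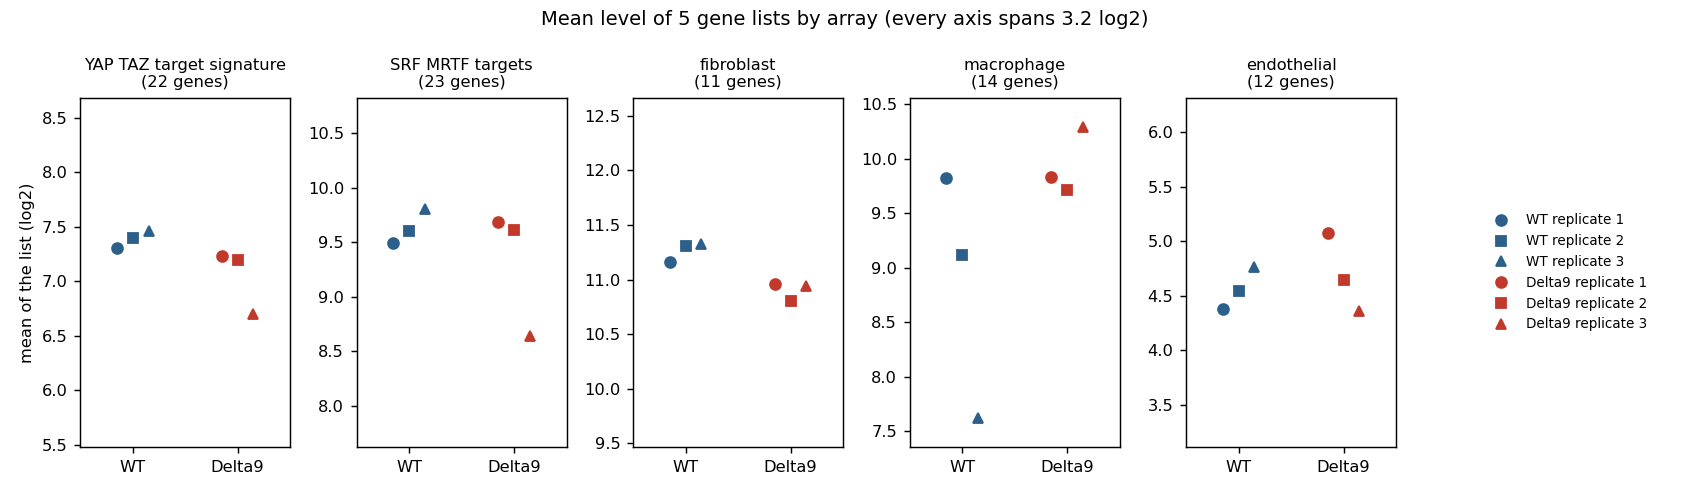
Mean log2 level of 5 gene lists (vertical axis) in each of the 3 WT and 3 Delta9 samples. Delta9 replicate 3 is lowest for the YAP and TAZ targets (6.70) and the SRF and MRTF targets (8.64) and highest for the macrophage markers (10.29).

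Some marker lists set Delta9 replicate 3 apart, and others followed genotype. The 14 macrophage markers all had a higher mean in Delta9, with a median difference of 1.08. Of them 3 were higher at an unadjusted p under 0.05 (limma), where 4.54% of all genes were. They averaged 9.84, 9.71 and 10.29 in Delta9 replicates 1 to 3 and 9.83, 9.11 and 7.63 in WT. The groups overlapped through WT replicate 1, and WT replicate 3 lay far below the other arrays. Delta9 replicate 3 had the highest macrophage mean, 10.29, and the lowest SRF and MRTF mean, 8.64 against 9.50 to 9.80 on the other arrays. The 11 fibroblast markers averaged 10.80 to 10.95 in Delta9 and 11.17 to 11.33 in WT, and all 11 had lower values. Smooth muscle and pericyte markers averaged 5.55 to 5.82 in Delta9 and 6.08 to 6.54 in WT, with 8 of 8 lower. Keratinocyte markers were dim, with 6 of 8 below the median level of all genes. They too averaged lower in Delta9, at 3.45 to 3.51 against 3.56 to 3.70 in WT, with 7 of 8 lower. On the Gapdh control, the 3' minus 5' probe set value was 0.25, 0.23 and 0.57 log2 in Delta9 and 0.49 to 0.57 in WT. On the beta-actin control it was 0.68, 0.51 and 0.84 in Delta9 and 0.82 to 1.41 in WT. On both, replicate 3 was the highest of the Delta9 samples and lay within the WT range. The part of these in the lower Ccn2, Tead1, Ankrd1 and Ajuba values of Delta9 replicate 3 was not tested.

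Immediate early genes, which serum and stretch induce together with Ccn1, showed no clear direction. Of 20, values were higher in 14 and lower in 6, and their median was 0.10. None passed (limma), with 1 higher and none lower at an unadjusted p under 0.05, where 4.54% and 6.06% of all genes were. That gene was Junb, an AP-1 subunit, at 7.58, 7.35 and 7.39 in Delta9 and 6.86, 7.11 and 6.91 in WT (0.48, SE 0.14). Egr3 and Egr1, zinc finger factors, differed by -0.40 (SE 0.18) and -0.28 (SE 0.15). Fos, named after its values were seen, stood at 10.31 in Delta9 replicate 3, against 7.41 to 8.22 elsewhere. In that sample Fos was thus high where the YAP targets were low. Not all of the list behaved this way, since Delta9 replicate 3 was the lowest array for 7 of the 20 genes. Myc (4.78) and Maff (4.51) were among those 7. The mean of the list was still highest in that sample, at 7.13 against 6.80 to 6.90.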

How the data were processed

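RNA of 3 Delta9 and 3 WT fibroblast samples was extracted with Trizol, labelled with biotin and hybridised to 1 Affymetrix array each, per the labels. The authors deposited 1 value per probe set and array on what appears to be a log2 scale, inferred from their range and near-equal medians. How the authors summarised and normalized them is not given in the sources used here, and they were used as they stand. Of 45101 probe sets, 64 are controls, 34945 have 1 gene symbol in the platform annotation, 932 several and 9160 are unnamed here. Those with 1 symbol were checked by Entrez identifier against RefSeq (34741 matched). For each of 18193 genes the probe set with the highest mean stood for the gene.

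All genes were fitted with limma 3.58.1 (R 4.3.3; lmFit, eBayes with trend), Delta9 minus WT, with Benjamini-Hochberg adjustment and a threshold of 0.05; the model was tested on simulated data. SE is the moderated standard error. Arrays number 3 per group, which limits the precision. Genes named are the 10 members, Lmna, the members' relatives, the 3 of lowest p in each pathway list and any past the threshold, and the 5 genes most correlated with Jcad and with Ccn2; markers and others were picked after their values were seen. Members and lists were chosen with earlier results of these data known. Alternatives were quantile normalization, leaving out dim genes, other probe set rules, other variance models, array weights, 2 blocks and leaving out each array. Figures used matplotlib 3.10.9.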

Additional observations from a re-analysis of the deposited data

How the results depend on the processing

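The sign of each member's difference was kept in 147 of 150 alternatives, not counting single probe sets. The 3 exceptions were Ajuba with array weights (0.21), without Delta9 replicate 3 (0.40) and without WT replicate 3 (0.15), with a range of -0.32 to 0.40 over single arrays left out. On single probe sets the sign turned in 7 of 24: Lats2 on 1419678_at (0.0378), 1419679_at (0.0607), 1425420_s_at (0.10) and 1426156_at (0.22), Yap1 on 1416487_a_at (0.0160), Wwtr1 on 1437155_a_at (0.0597) and Tead1 on 1423434_at (0.18).

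The count of members past the threshold was 1, which is Jcad and restates its choice. It was 0 with the mean of probe sets and with the replicate number as a block. At an unadjusted p under 0.05 (limma) these gave 4 and 5 of the 10 members, beside 1871 and 1348 of 18193 genes. With single arrays left out, the count past the threshold was 1 without Delta9 replicate 3 and 0 without any other array. Whether Jcad passed thus depended on nearly every array. Over all genes 11 passed, 139 with array weights, 149 with the spike-in split as a block, 0 with the replicate block (limma, 1348 at an unadjusted p under 0.05), and 1 (without WT replicate 2) to 81 (without Delta9 replicate 3) with single arrays left out. Deviations of same-numbered samples from their group means had correlations of -0.40, 0.17 and -0.43. With 3 samples per group these values cannot exclude a pairing by number, and whether the number marks one is not known here.

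Medians of lists moved as follows. The kinase core was 0.0856 and the upstream regulators -0.0496 with the mean of probe sets, and the upstream regulators -0.0707 with array weights. With single arrays left out, the kinase core ran from -0.0684 to 0.0209, the upstream regulators from -0.21 to -0.10 and the SRF and MRTF targets from -0.62 to 0.0304. The cause was not tested.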

Other observations

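Genes of the target signature did not all follow Ccn1. Gadd45a, a growth arrest gene, lay at 6.51 to 7.21 in Delta9 and 6.08 to 6.63 in WT, with overlapping groups and a difference of 0.53 (SE 0.23). Axl, a receptor tyrosine kinase, read 8.15, 7.92 and 6.60 in Delta9 and 6.80, 7.61 and 7.87 in WT, with the highest and the lowest value both in Delta9, as for Ajuba. Igfbp3, an insulin-like growth factor binding protein, lay at 9.29 to 9.57 in Delta9, inside its WT range of 9.18 to 9.71. Among the upstream regulators Fat4, an atypical cadherin like Fat1, had WT values of 7.03, 6.14 and 6.62 and Delta9 values of 4.66, 4.86 and 6.42. There Delta9 replicate 3 was the sample within the WT range. These genes were named after their values were seen.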
